A study of Mus musculus with 12 samples.

Results

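The comparison described here is of mouse cytotoxic T lymphocytes (CTL, the effector form of CD8+ T cells) restimulated with their peptide antigen against the same kind of CTL left without it. It was chosen by the labels and uses 6 of the 12 samples of the series, 3 labelled + TCR 4hr (TCR) and 3 labelled Unstimulated. The CTL carried the P14 T cell receptor (TCR), a transgenic receptor that recognises the gp33 to 41 peptide of lymphocytic choriomeningitis virus, and came from female P14 mice 9 to 13 weeks old. They were activated for 48 h, grown in interleukin 2 (IL-2) at 20 ng/mL until day 7, rested for 1 h, and, in the TCR group, given peptide at 100 ng/mL for 4 h. The remaining 6 samples also received peptide together with IC87114 at 10 µM or PD184252 at 2 µM, inhibitors of PI3K p110δ and of MEK, and enter the values below only through the estimate of the spread. Cells of 3 mice gave the replicates per the study's methods, and whether a replicate number marks the same mouse in both groups is not stated. As a model these cells are a single receptor specificity expanded in culture in IL-2.

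Engagement of the TCR starts calcium, MAP kinase and NF-kB signalling, and these act on transcription factors that are made or released within minutes to hours. In CTL the same signal releases the contents of cytolytic granules and starts a wave of new messenger RNA, including genes for inhibitors that limit the signal. The gene classes below were drawn up beside lists of cytokine, cell cycle, glycolytic and interferon-inducible genes, and 22 genes, among them TNF superfamily ligands such as Cd70 and Tnfsf13b, stand in both.

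Messenger RNA was measured as FPKM, fragments per kilobase of exon scaled to library size, for 11022 genes. A gene was called higher or lower when its adjusted p (limma, on log2(FPKM + 0.1), Benjamini-Hochberg) was under 0.05 and its change exceeded 2-fold. By that rule 978 genes (8.87% of those tested) were higher after peptide and 1224 (11.1%) were lower. These percentages are the background against which the counts of each class can be read. Most genes named below were picked among called genes without overlap between the groups, so a lack of overlap adds no further support. The FPKM sum of a library was between 470421 and 495945 in unstimulated CTL and between 620715 and 666922 after peptide. Listed cytokine and chemokine ligands took 0.594% of that sum in unstimulated CTL and 15.8% after peptide (means, n = 3). The part of these ligands in the shifts given next was not tested. Rescaling every library to a common sum moved the median log2 fold change of all genes from -0.01 to -0.41. It changed the called genes to 647 higher and 2276 lower, so that 22.1% rather than 44.4% of called genes were higher. Counts of a class called higher and lower therefore also depend on the scale. With a common FPKM sum they are to be read beside 647 and 2276 of the 11022 genes, not beside 8.87% and 11.1%. The table gives no read counts, and its depth can only be estimated: 64.4% to 80.3% of 44 to 66 low values per library lay within 0.15 of a whole read at an effective depth of 9780000 to 13380000 fragments. Correlations of log2(FPKM + 0.1) across genes were 0.9925 to 0.9946 between libraries of one group and 0.8979 to 0.9061 between groups. Less RNA per cell and fewer cells that carry it cannot be told apart in such bulk samples.

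The labelled cell type was checked against marker genes. All 9 CTL markers, among them Cd3e, Cd8a, Gzmb and Prf1, were measured, with a summed level of 11160 to 12350 FPKM in unstimulated CTL and 16550 to 17620 FPKM after peptide. The NK cell list had 1 of 3 markers measured, Klrb1c, at 5.35, 6.23 and 4.58 FPKM in the unstimulated libraries and 1.87, 1.88 and 1.63 FPKM after peptide. CD4 T cell markers summed to 7.54 to 9.31 and 7.59 to 8.26 FPKM (2 of 3 measured), within which Cd4 went from 0.89, 0.99 and 0.44 to 2.65, 2.54 and 2.87 FPKM, and none of the listed markers of B cells, neutrophils, erythroid cells or gamma-delta T cells was measured. Of 5 dendritic cell markers 1 was measured, Zbtb46, a transcription factor gene, with 0.03, 0.03 and 0.02 FPKM in the unstimulated libraries and 3.57, 3.63 and 3.27 FPKM after peptide. The macrophage list had 1 of 6 markers measured, Cd68, at 7.86 to 8.44 FPKM before and 4.88 to 8.4 FPKM after peptide. The part of such cells in the results was not tested.

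**Figure D1:**
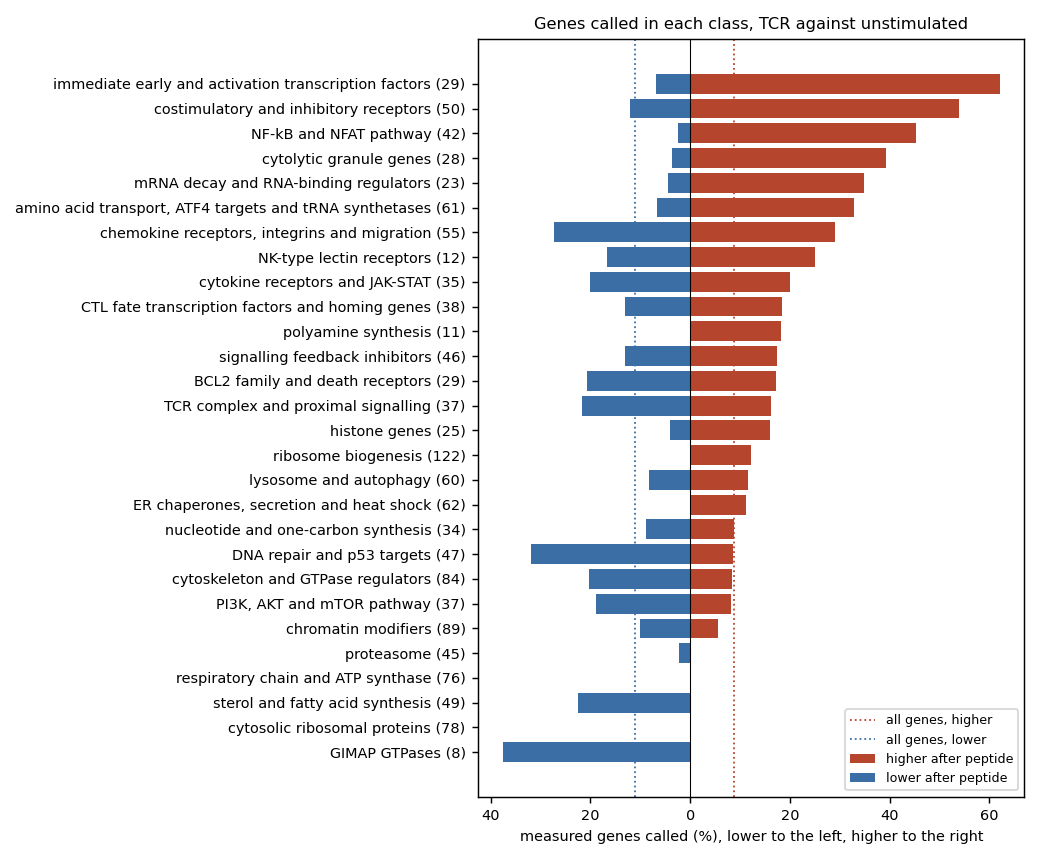
Bars give the percentage of measured genes of each class (number in brackets) called lower (left, blue) or higher (right, red) in TCR against unstimulated CTL, and dotted lines the percentage of all genes (8.87% higher, 11.1% lower). Immediate early transcription factors and costimulatory and inhibitory receptors with their ligands had the highest shares of genes called higher (62.1% and 54%). With a common FPKM sum 14 of 29 and 22 of 50 genes of these classes were still higher. No ribosomal protein or respiratory chain gene was called.

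The NF-kB pathway was among the classes with most genes called higher. NF-kB is a set of dimeric transcription factors held in the cytoplasm by inhibitors, and its target genes include those inhibitors. The inhibitor genes counted here also include other kinds, such as the deubiquitinase gene Tnfaip3 and the gene of a nuclear regulator, Nfkbid. All 5 subunit genes and 8 of 12 inhibitor genes were higher, against 8.87% of all genes, and none was lower; the median log2 fold change was 2.76 for the subunits and 2.09 for the inhibitors, compared with -0.01 for all genes. With a common FPKM sum 4 of the 5 subunits and 7 of the 12 inhibitors were still called higher, and 1 inhibitor was called lower.

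Promoters of 3 called genes of this class are shown because the 9-base NF-kB motif GGANTTTCC, searched on both strands, occurs in them. Each sequence is the 250 bases before a RefSeq start of the gene (GRCm38.p6), written 5′ to 3′ on the gene's strand in lower case with the motif in capitals. Nfkbia is at chr12:55492648-55492897 (- strand) with motifs starting -178 and -29 bases from the start, Tnfaip3 at chr10:19015411-19015660 (- strand) with one at -24, and Nfkb2 at chr19:46305680-46305929 (+ strand) with one at -224.
Nfkbia: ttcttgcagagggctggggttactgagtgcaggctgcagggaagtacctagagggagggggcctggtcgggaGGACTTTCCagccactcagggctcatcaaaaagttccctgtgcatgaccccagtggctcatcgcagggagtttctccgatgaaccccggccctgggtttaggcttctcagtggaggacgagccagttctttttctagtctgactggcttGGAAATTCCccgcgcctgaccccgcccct
Tnfaip3: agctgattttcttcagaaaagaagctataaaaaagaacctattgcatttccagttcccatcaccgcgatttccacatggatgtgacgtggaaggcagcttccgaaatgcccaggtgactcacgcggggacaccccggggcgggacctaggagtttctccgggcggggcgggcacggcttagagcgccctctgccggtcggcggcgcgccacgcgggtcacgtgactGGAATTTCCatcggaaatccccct
Nfkb2: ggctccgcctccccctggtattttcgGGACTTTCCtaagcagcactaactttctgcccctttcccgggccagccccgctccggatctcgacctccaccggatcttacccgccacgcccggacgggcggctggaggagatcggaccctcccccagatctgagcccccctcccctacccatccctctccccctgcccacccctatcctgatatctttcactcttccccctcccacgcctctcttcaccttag
Promoter sequences were matched for 8333 of the 11022 genes. Over the whole RefSeq promoter of 300 bases, which adds 50 bases after the start, 1.56% of genes held the motif, compared with 3.26% of genes called higher, 1.22% of genes called lower and 4 of 31 genes of the NF-kB and NFAT class; in the 250 bases alone the shares were 1.36%, 2.69%, 1.11% and 4 of 31. The fourth gene of the class was Cyld, an NF-kB pathway deubiquitinase that was not called on the deposited scale and was called lower with a common FPKM sum. Beside it stands the cytokine receptor and JAK-STAT class, where 4 of 27 promoters of 300 bases (14.8%) held the motif. Of the other motifs, AP-1 letters (TRE, TGANTCA) were in 5.94% of all genes' promoters, 10.5% of those called higher and 7.56% of those called lower. CRE letters (TGACGTCA) were in 3.83%, 4.25% and 1.67%, EGR letters (GCGTGGGCG) in 1.52%, 1.98% and 1.89%, and sterol regulatory element letters (TCACNCCAC) in 1.36%, 1.42% and 1.67%. A match describes these letters and is not a binding site.

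Rel, the gene of the c-Rel subunit, had 3.34, 3.79 and 3.91 FPKM in the unstimulated libraries and 77.1, 106 and 95.3 FPKM after peptide. The change was large against the spread (log2 fold change 4.61 ± 0.12 SE, limma adjusted p = 1.6e-13). Nfkb2, which encodes the p100 precursor, rose from 17.4, 18.3 and 19.2 to 135, 127 and 132 FPKM (log2 fold change 2.84 ± 0.06 SE, limma adjusted p = 4.4e-15), and Relb rose from 6.44, 7.63 and 8.15 to 53.3, 48 and 49.9 FPKM (log2 fold change 2.76 ± 0.09 SE, limma adjusted p = 7.3e-13). Nfkb1 and Rela, the subunits of the canonical dimer, had smaller log2 fold changes of 1.54 and 1.21, and Rela missed the 2-fold limit with a common FPKM sum (0.80). Among the inhibitors Tnip3, whose product binds the A20 deubiquitinase, had 0, 0.08 and 0.12 FPKM in the unstimulated libraries and 23.8, 21.1 and 21.6 FPKM after peptide. Tnfaip3, which encodes A20 itself, rose from 3.58, 3.59 and 3.88 to 90.7, 94.3 and 86.2 FPKM (log2 fold change 4.58 ± 0.06 SE, limma adjusted p = 3.2e-17). Nfkbid, a nuclear IkB-type regulator, rose from 22.4, 21.1 and 19.8 to 446, 441 and 481 FPKM (log2 fold change 4.43 ± 0.09 SE, limma adjusted p = 5.3e-15), and Nfkbia, the gene of IkB-alpha, rose from 12.6, 11.7 and 13.5 to 98.8, 86.5 and 94.2 FPKM (log2 fold change 2.88 ± 0.06 SE, limma adjusted p = 1.7e-14). All TCR values of these genes lay above every unstimulated value, which was part of the rule by which most of them were named. Of 11 kinases and adaptors that activate NF-kB, 4 were higher, led by Malt1 (log2 fold change 1.83), a paracaspase gene, Map3k8 (1.78) and Traf1 (1.41); with a common FPKM sum 2 were higher, and Traf1 (0.996) was not. Of 14 NFAT and calcineurin genes 2 were higher, Nfat5 (1.77) and the calcium channel gene Orai1 (1.72), and Nfatc2 fell from 31.4, 30.8 and 29.6 to 10.2, 9.82 and 12.4 FPKM; 6 of the 14 were lower with a common FPKM sum.

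**Figure D2:**
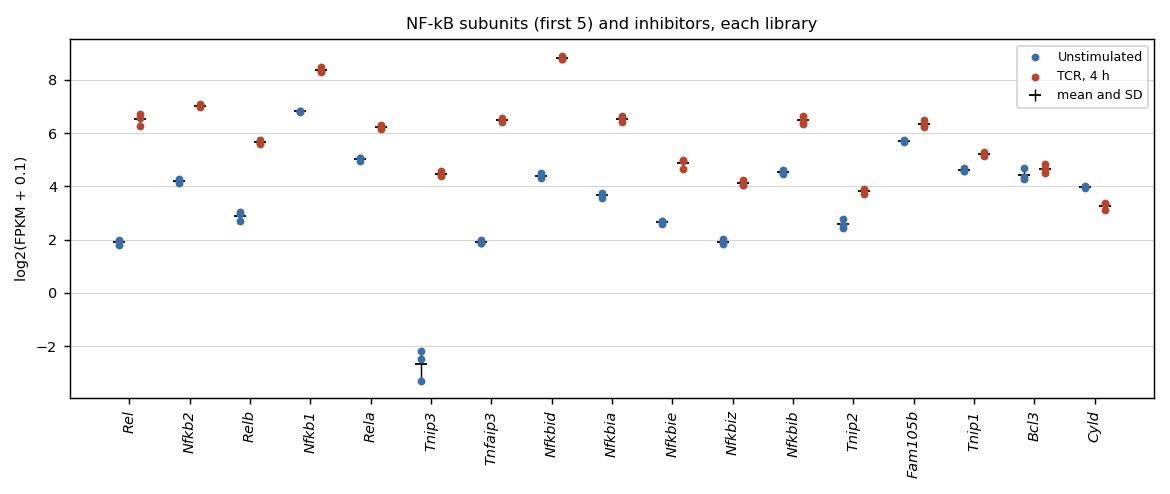
Points give log2(FPKM + 0.1) of each library for the 5 NF-kB subunits and 12 inhibitors, blue for unstimulated and red for TCR CTL, with the mean and SD in black. All 5 subunits were called higher, beside 8.87% of all genes, and Tnip3 is at or near 0 FPKM before peptide. The FPKM scale itself is that of the deposited table.

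Immediate early and activation transcription factors had 18 of 29 measured genes higher and 2 lower, with a median log2 fold change of 1.23. The AP-1 and BATF group had 6 of 10 genes higher. Atf3, a bZIP factor of the stress response, had 1.8, 1.94 and 2.02 FPKM in the unstimulated libraries and 56.3, 54.9 and 53.1 FPKM after peptide. The log2 fold change of Atf3 was 4.76 ± 0.07 SE (limma adjusted p = 6.3e-17). Fos rose from 0.68, 0.55 and 0.25 to 9.1, 9.53 and 9.45 FPKM (log2 fold change 4.07 ± 0.22 SE, limma adjusted p = 3.3e-10) and Fosb from 0.19, 0.13 and 0.06 to 2.55, 2.4 and 2.3 FPKM (log2 fold change 3.51 ± 0.21 SE, limma adjusted p = 1.2e-09), so that the AP-1 gene Fos ended at a lower FPKM than Atf3. Among EGR factors and their NAB co-repressors 6 of 9 genes were higher. Egr2 rose from 1.41, 1.52 and 1.47 to 163, 175 and 178 FPKM (log2 fold change 6.78 ± 0.11 SE, limma adjusted p = 5.9e-16) and Egr3 from 2.08, 3.25 and 2.18 to 64.1, 79.1 and 119 FPKM (log2 fold change 5.05 ± 0.24 SE, limma adjusted p = 7.7e-11). Egr1 rose from 36.4, 35.4 and 39.8 to 76.3, 89.2 and 97 FPKM (log2 fold change 1.23 ± 0.12 SE, limma adjusted p = 3.4e-07), a call lost with a common FPKM sum (0.82). The NR4A orphan receptors, which are induced by TCR signals, had 0.79, 0.74 and 0.73 FPKM in the unstimulated libraries and 173, 139 and 194 FPKM after peptide for Nr4a1, a gene at chr15:101253902-101274795 (GRCm38.p6). All 3 NR4A genes rose, Nr4a1 as given (log2 fold change 7.62 ± 0.11 SE, limma adjusted p = 1.6e-16), Nr4a2 by 4.96 and Nr4a3 by 4.88. Irf4, a factor whose level follows TCR strength, rose from 23.6, 20.1 and 20.6 to 387, 429.6 and 402 FPKM (log2 fold change 4.24 ± 0.08 SE, limma adjusted p = 4.8e-15), and Myc rose from 126, 125 and 122 to 298, 267 and 306 FPKM (log2 fold change 1.22 ± 0.06 SE, limma adjusted p = 2.0e-10) but missed the 2-fold limit with a common FPKM sum (0.81) or quantile normalisation (0.97). Irf1 and Mycn were lower, with log2 fold changes of -2.12 and -1.47.

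Factors that set CTL fate split in both directions. Of 16 genes tied to effector function and exhaustion, 5 were higher and 1 lower, and of 22 tied to quiescence, memory and homing, 2 were higher and 4 lower, which for the second group is 9.09% and 18.2%, beside 8.87% and 11.1% of all genes. Zeb2, a repressor linked to terminal effector cells, rose from 0.07, 0.02 and 0.04 to 6.03, 7.09 and 6.31 FPKM (log2 fold change 5.53 ± 0.16 SE, limma adjusted p = 2.5e-13). Bcl6 and Ikzf3 had log2 fold changes of 2.58 and 2.34, and Tbx21, the gene of T-bet, rose from 14.7, 12.3 and 13.8 to 58.5, 45.5 and 54.9 FPKM (log2 fold change 1.95 ± 0.11 SE, limma adjusted p = 6.5e-10). Id3 fell from 6.63, 5.23 and 7.67 to 0.75, 0.63 and 0.75 FPKM (log2 fold change -3.02 ± 0.21 SE, limma adjusted p = 6.9e-09). Bcl11b and Elf4 fell by 1.38 and 1.25 on the log2 scale. Tcf7, a memory-associated factor, stayed at low levels, from 1.55, 0.73 and 1.38 to 3.11, 3.69 and 3.33 FPKM, and was called higher (log2 fold change 1.45 ± 0.24 SE, limma adjusted p = 8.5e-05), a call lost with a pseudocount of 1. Foxo1 was at 15.5, 13.7 and 13.4 FPKM in the unstimulated libraries and 15.6, 15.4 and 14.3 FPKM after peptide, ranges that overlap, and was not called; its log2 fold change of 0.09 turned to -0.32 with a common FPKM sum (limma adjusted p = 0.30 on the deposited scale).

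Costimulatory and inhibitory receptors and their ligands were higher in 27 of 50 measured genes and lower in 6, with a median log2 fold change of 1.10. Of 10 TNF superfamily ligands 8 were higher and 1 lower, and all of these called ligands also stand in the cytokine list. Cd70, the ligand of CD27, had 0, 0 and 0.09 FPKM in the unstimulated libraries and 41.4, 38.3 and 38.4 FPKM after peptide. Cd40lg rose from 1.5, 0.84 and 1.14 to 113, 110.3 and 112 FPKM (log2 fold change 6.51 ± 0.13 SE, limma adjusted p = 7.3e-15) and Tnfsf14, which encodes LIGHT, from 3.5, 3.1 and 3.16 to 249, 253 and 246 FPKM (log2 fold change 6.22 ± 0.06 SE, limma adjusted p = 2.3e-18). No value overlapped between the groups for these genes, which was part of the rule by which they were named. Tnfsf13b, which encodes BAFF, fell from 1.68, 1.64 and 2.26 to 0.36, 0.36 and 0.3 FPKM (log2 fold change -2.14 ± 0.21 SE, limma adjusted p = 3.0e-07). Of 14 TNF receptor genes 6 were higher and 2 lower. Tnfrsf4, the gene of OX40, rose from 5.86, 3.07 and 3.39 to 181, 123 and 139.6 FPKM (log2 fold change 5.18 ± 0.20 SE, limma adjusted p = 7.2e-12), Cd27 rose from 15.3, 15.4 and 12.7 to 117, 115 and 110.2 FPKM (log2 fold change 2.97 ± 0.07 SE, limma adjusted p = 6.2e-14), and Tnfrsf18 had a log2 fold change of 1.81.

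Of 26 CD28 family genes and other inhibitory receptors, 13 were higher and 3 lower. Slamf1 rose from 1.42, 1 and 0.9 to 51.5, 50.8 and 47.4 FPKM (log2 fold change 5.40 ± 0.13 SE, limma adjusted p = 5.1e-14). Cd200, a ligand that inhibits myeloid cells, was listed at 0 in every unstimulated library and at 1.92, 1.63 and 1.65 FPKM after peptide. Pdcd1, which encodes PD-1, rose from 23.4, 17.9 and 13.4 to 227, 205 and 199 FPKM (log2 fold change 3.55 ± 0.14 SE, limma adjusted p = 7.5e-12). The inhibitory receptor genes Cd160, Lag3, Ctla4, Tigit and Havcr2, named after their values were seen, had log2 fold changes of 3.00, 2.97, 2.69, 2.61 and 1.45. Icos, by contrast, was at 56.8, 46.5 and 48.2 FPKM in the unstimulated libraries and 50.4, 50.4 and 45.7 FPKM after peptide and was not called. Entpd1, which encodes CD39, fell by 1.35 on the log2 scale and Cd200r1, a call lost with a pseudocount of 1 (-0.67), by 1.65. The activation marker Cd69 rose from 67.1, 60.7 and 70.7 to 138, 134 and 148 FPKM (log2 fold change 1.08 ± 0.07 SE, limma adjusted p = 2.5e-09), a call lost with a common FPKM sum or quantile normalisation, and Il2ra, the high-affinity IL-2 receptor chain, was at 308, 265 and 271 FPKM in the unstimulated libraries and 419.9, 430.3 and 451 FPKM after peptide, under the 2-fold limit.

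**Figure D3:**
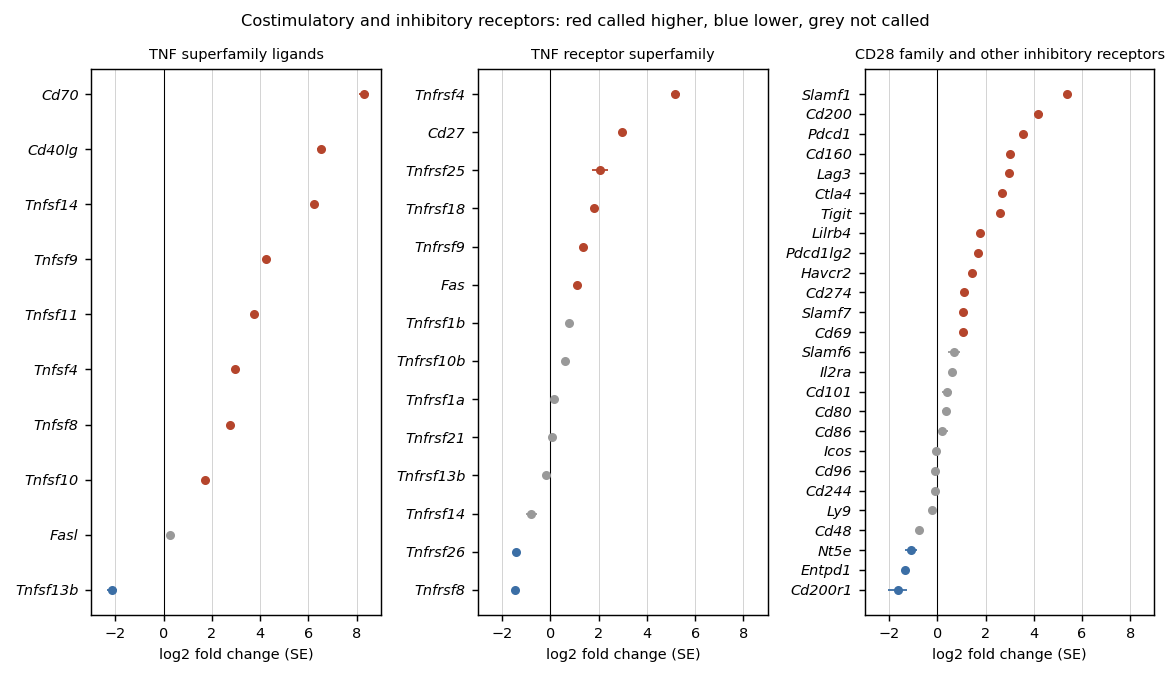
Points give the log2 fold change of each gene (TCR over unstimulated) with its SE as a bar, red where called higher, blue where lower and grey where not called. Cd70 and Cd40lg lead the TNF ligands at 8.31 and 6.51 and Tnfrsf4 the receptors at 5.18; 22 of the 50 genes were higher and 8 lower with a common FPKM sum.

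Genes of the signalling machinery were called in both directions on the deposited scale. In the group of receptor chains and coreceptor 3 of 10 genes were higher, all of them accessory receptors, Cd6, Cd5 and Cd28. The call of Cd28 (log2 fold change 1.15) was lost with a common FPKM sum (0.74). Of 27 kinases and adaptors below the receptor 3 were higher and 8 lower (29.6% lower, 11.1% of all genes). With a common FPKM sum none of the kinases and adaptors was higher and 11 were lower, and after quantile normalisation none was higher and 8 were lower. Cd3e had 132, 122 and 122 FPKM in the unstimulated libraries and 113, 106 and 114 FPKM after peptide and Cd8a 229, 213 and 222 FPKM in the unstimulated libraries and 361, 353 and 366 FPKM after peptide, and neither passed the 2-fold limit. Cd6 and Cd5, scavenger receptors that dampen TCR signals, rose, with log2 fold changes of 2.63 and 1.46. Rasgrp1, the Ras activator that responds to diacylglycerol, fell from 58.6, 58.2 and 54.3 to 9.3, 9.69 and 10.1 FPKM (log2 fold change -2.54 ± 0.08 SE, limma adjusted p = 1.6e-12), and Sit1 and Pag1, the anchor of the kinase CSK, had log2 fold changes of -2.19 and -2.14. Lcp2, the gene of the adaptor SLP-76, rose from 82.5, 91 and 82.5 to 188, 198 and 189.8 FPKM (log2 fold change 1.17 ± 0.06 SE, limma adjusted p = 1.1e-10), a call lost with a common FPKM sum or quantile normalisation.

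Feedback inhibitors moved in both directions. Of 16 MAP kinase phosphatase and Sprouty genes, 5 were higher and 1 lower (4 and 3 with a common FPKM sum). Spry1, an inhibitor of Ras and MAP kinase signalling, had 0.39, 0.31 and 0.15 FPKM in the unstimulated libraries and 55.1, 48.5 and 42.3 FPKM after peptide. The log2 fold change of Spry1 was 7.04 ± 0.18 SE (limma adjusted p = 9.0e-14). Dusp4 rose from 5.1, 7.15 and 6.3 to 54.6, 63.5 and 55.8 FPKM (log2 fold change 3.22 ± 0.10 SE, limma adjusted p = 1.2e-12) and Spry2 from 4.27, 4.46 and 5.63 to 32, 29.2 and 31.4 FPKM (log2 fold change 2.67 ± 0.10 SE, limma adjusted p = 3.8e-12). None of 8 SOCS and CISH genes was higher, beside 8.87% of all genes, and Socs1 and Socs2 were lower by 1.71 and 1.35 on the log2 scale. Among diacylglycerol kinases, phosphatases and ubiquitin ligases 3 of 22 were higher and 3 lower (13.6% each), near the shares of all genes. Sla, which encodes an adaptor that lowers TCR levels, rose from 9.53, 9.01 and 9.86 to 149, 150.4 and 155 FPKM (log2 fold change 3.99 ± 0.05 SE, limma adjusted p = 6.0e-17), whereas its relative Sla2 fell by 1.86. Cblb, a ubiquitin ligase of TCR signalling, and Ubash3b rose by 1.53 and 1.61, while Ubash3a fell by 1.45.

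Receptors for cytokines moved in both directions. Of 24 receptor chains 4 were higher and 6 lower, with a median log2 fold change of -0.43; 3 were higher and 12 lower with a common FPKM sum. Ifngr1, a chain of the interferon-gamma receptor, had 201, 188 and 196 FPKM in the unstimulated libraries and 50, 49 and 51.5 FPKM after peptide. The change was many times the spread (log2 fold change -1.96 ± 0.05 SE, limma adjusted p = 4.7e-14), and Ifngr2 and Il10rb had log2 fold changes of -2.64 and -2.03. The 3 largest rises were of interleukin 1 family receptors. Il1r2, a decoy receptor, rose from 1.99, 1.5 and 1.79 to 66.8, 57.4 and 53.5 FPKM (log2 fold change 5.00 ± 0.12 SE, limma adjusted p = 4.1e-14), Il1rl1, the receptor of IL-33, by 2.95 and Il1rap by 2.06. Of 11 JAK and STAT genes, Stat5a, Jak2 and Stat5b rose, with log2 fold changes of 3.40, 2.25 and 1.41, and 1 gene was lower; the call of Stat5b was lost with a common FPKM sum (0.997), where 2 genes were higher and 2 lower.

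Of 55 genes for migration and adhesion 16 were higher (29.1%) and 15 lower (27.3%), beside 8.87% and 11.1% of all genes. With a common FPKM sum 12 were higher and 19 lower, beside 647 and 2276 of all 11022 genes. Ccr2, a chemokine receptor, fell from 199, 185 and 197 to 28.6, 34.4 and 39.7 FPKM (log2 fold change -2.51 ± 0.09 SE, limma adjusted p = 4.2e-12). Gpr34 and Ccr4 fell by 2.12 and 2.08, while Gpr65, a proton-sensing receptor, rose from 35, 34 and 33.9 to 202, 209 and 194 FPKM (log2 fold change 2.55 ± 0.06 SE, limma adjusted p = 1.5e-14) and Gpr174 and Ptger2, a prostaglandin E2 receptor, by 2.26 and 2.01. Crtam, an adhesion receptor of activated CD8+ T cells, at chr9:40972798-41004628 (GRCm38.p6), had 3.43, 4.1 and 4.89 FPKM in the unstimulated libraries and 853, 831 and 821 FPKM after peptide. The groups were far apart (log2 fold change 7.64 ± 0.11 SE, limma adjusted p = 1.4e-16). Itga3 and Cd44 rose by 3.37 and 2.59, and Itgb7 fell by 1.58 and Selplg, the P-selectin ligand, from 265, 262 and 246 to 94.3, 81.8 and 98.4 FPKM. RGS proteins, which switch off G protein signals, rose or fell by gene. Rgs16 rose from 25.6, 29.8 and 30.7 to 935, 950.2 and 929.8 FPKM (log2 fold change 5.03 ± 0.06 SE, limma adjusted p = 3.2e-17), Rgs2 and Rgs1 by 4.57 and 4.01, and Rgs18 and Rgs12 fell by 2.65 and 1.98.

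Cytolytic granule genes had 11 of 28 genes higher and 1 lower (39.3% and 3.57%). Their summed share of the FPKM of a library was 4.55% ± 0.157 (SD, n = 3) before and 5.31% ± 0.132 after peptide (exact two-sided permutation test over samples, p = 0.1, the smallest that 3 against 3 allows). Gzmb, the leading granule protease, was at 9460.4, 8481 and 8279 FPKM in the unstimulated libraries and 13582, 12789 and 12645 FPKM after peptide and did not pass the 2-fold limit. Prf1, which forms the pore, rose from 635, 692 and 639 to 1486, 1429 and 1499 FPKM (log2 fold change 1.17 ± 0.06 SE, limma adjusted p = 3.2e-10), a call lost with a common FPKM sum (0.76) or quantile normalisation (0.69). The largest rises were of serpins, protease inhibitors. Serpinb6b rose from 38.8, 41.4 and 34.6 to 900.2, 903 and 793 FPKM (log2 fold change 4.50 ± 0.08 SE, limma adjusted p = 2.8e-15), Serpinb9b by 3.64 and Serpinb9, an inhibitor of granzyme B, by 2.47 on the log2 scale. The granzyme genes Gzmc, Gzmd, Gzme, Gzmf and Gzmg were also higher, with log2 fold changes of 1.64, 1.94, 1.81, 1.39 and 1.40. The calls of Gzmf (0.980) and Gzmg (0.985) were lost with a common FPKM sum. Gzmk was lower (-1.05), and that call was lost without TCR replicate 1 (log2 fold change -0.95) or without Unstimulated replicate 2 (-0.96) and with a pseudocount of 1 (-0.996). Serpinb6b, Serpinb9b and the granzyme genes have close copies, and how shared reads were assigned is not stated.

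Of 10 anti-apoptotic genes 4 were higher and 1 lower. Bcl2a1d and Bcl2a1b, near-identical anti-apoptotic genes whose reads may be shared, had log2 fold changes of 4.67 and 3.99. Bcl2l1, which encodes BCL-XL, rose from 58.2, 59.6 and 54.5 to 176, 164 and 175 FPKM (log2 fold change 1.58 ± 0.06 SE, limma adjusted p = 3.0e-12), whereas Bcl2 fell from 49, 49.9 and 46.5 to 15, 18.9 and 19.8 FPKM (log2 fold change -1.44 ± 0.09 SE, limma adjusted p = 3.1e-09) and Mcl1 was at 69.5 ± 3.77 FPKM before and 102 ± 4.58 FPKM after peptide (mean ± SD, n = 3), under the 2-fold limit. Among 19 pro-apoptotic genes Bcl2l11, the gene of BIM, was the single one called higher (2.36) and 5 were lower (9 with a common FPKM sum), among them Bnip3 (-1.81) and Apaf1 (-1.61). Of 23 decay factors 8 were higher. Zfp36l1, Btg1 and Zc3h12a, which encodes the RNase Regnase-1, rose by 2.39, 2.31 and 2.14, and Zfp36l2, a relative of Zfp36l1, fell from 96.5, 96.3 and 103 to 20.4, 21.9 and 25.9 FPKM (log2 fold change -2.12 ± 0.09 SE, limma adjusted p = 2.5e-11).

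Of 100 nucleolar processing factors, which build ribosome subunits, 11 were higher (11%, beside 8.87% of all genes) and none was lower, and the median log2 fold change was 0.65. With a common FPKM sum 1 was still higher and the median was 0.24. Polr1c, an RNA polymerase I and III subunit, rose from 33.3, 38.1 and 34.5 to 122, 103 and 103 FPKM (log2 fold change 1.62 ± 0.07 SE, limma adjusted p = 3.7e-11), and Ppan, a ribosome assembly factor, from 63.5, 61.7 and 61.7 to 192, 164 and 172 FPKM (log2 fold change 1.49 ± 0.07 SE, limma adjusted p = 6.7e-11). None of 78 cytosolic ribosomal protein genes was called. On the deposited scale, with a common FPKM sum and after quantile normalisation the median log2 fold changes of all genes were -0.01, -0.41 and -0.05. Those of the ribosomal protein genes were 0.39, -0.03 and -0.06. Their share of the FPKM sum was 19.6% ± 0.684 (SD, n = 3) before and 19.3% ± 0.862 after peptide (exact two-sided permutation test, p = 0.5). The respiratory chain and ATP synthase (76 genes) and the proteasome core and regulatory subunits (40 genes) also had no gene called. Their medians of 0.13 and 0.17 became -0.28 and -0.24 with a common FPKM sum, where that of all genes was -0.41. E-box letters CACGTG, searched on both strands, were in 20.6% of 102 ribosome biogenesis promoters of 300 bases and 12.2% of all promoters, but in 8.82% and 10.2% of the 250 bases before the start alone, so the difference rests on the 50 bases after it. Over 300 bases the letters were also in 33.3% of 9 polyamine, 28.6% of 42 lysosome and autophagy, 27.3% of 22 sterol synthesis and uptake, 21.6% of 37 DNA repair and 20.8% of 48 amino acid and ATF4 class promoters.

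ATF4 is a transcription factor of the amino acid and stress response, and 9 of 17 of its listed targets were higher and 1 lower, with a median log2 fold change of 1.09 (0.68 with a common FPKM sum). Atf4 itself rose from 173, 174 and 183 to 523, 479 and 471 FPKM (log2 fold change 1.47 ± 0.06 SE, limma adjusted p = 7.4e-12). Chac1 rose from 2.1, 2.99 and 2.64 to 24, 18.4 and 19.1 FPKM (log2 fold change 2.95 ± 0.14 SE, limma adjusted p = 9.3e-11), Nupr1 by 2.79 and Ddit3 by 1.84, and Ddit4 fell by 1.14 on the log2 scale. Among 24 nutrient transporters 7 were higher and 3 lower. With a common FPKM sum 3 were higher and 5 lower, beside 647 and 2276 of all 11022 genes. Slc1a4, a neutral amino acid transporter, rose from 3.31, 3.42 and 3.36 to 38.8, 36 and 35.8 FPKM (log2 fold change 3.41 ± 0.07 SE, limma adjusted p = 5.3e-15) and Slc29a1, a nucleoside transporter, by 2.00. Slc7a5, the large neutral amino acid transporter, rose by 1.17, a call lost with a common FPKM sum (0.76) or quantile normalisation (0.96). Smox and Sat1, enzymes of polyamine breakdown, rose by 3.96 and 2.11, and the rate-limiting synthetic enzyme gene Odc1 was at 239 ± 7.89 FPKM before and 433 ± 14.3 FPKM after peptide (mean ± SD, n = 3), under the 2-fold limit.

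Lipid synthesis genes were lower or not called. Of 32 sterol synthesis and uptake genes none was higher and 6 were lower, with a median log2 fold change of -0.58 on the deposited scale, -0.99 with a common FPKM sum and -0.52 after quantile normalisation. Acat2 fell from 12.9, 11.8 and 12.4 to 1.53, 1.36 and 1.82 FPKM (log2 fold change -2.91 ± 0.15 SE, limma adjusted p = 3.0e-10), Abcg1, a sterol exporter, by 2.24 and Dhcr7 by 1.52. Of 17 fatty acid genes 5 were lower and none higher, led by the elongase Elovl5 (-1.69) and the desaturases Scd2 (-1.62) and Scd1 (-1.52).

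**Figure D4:**
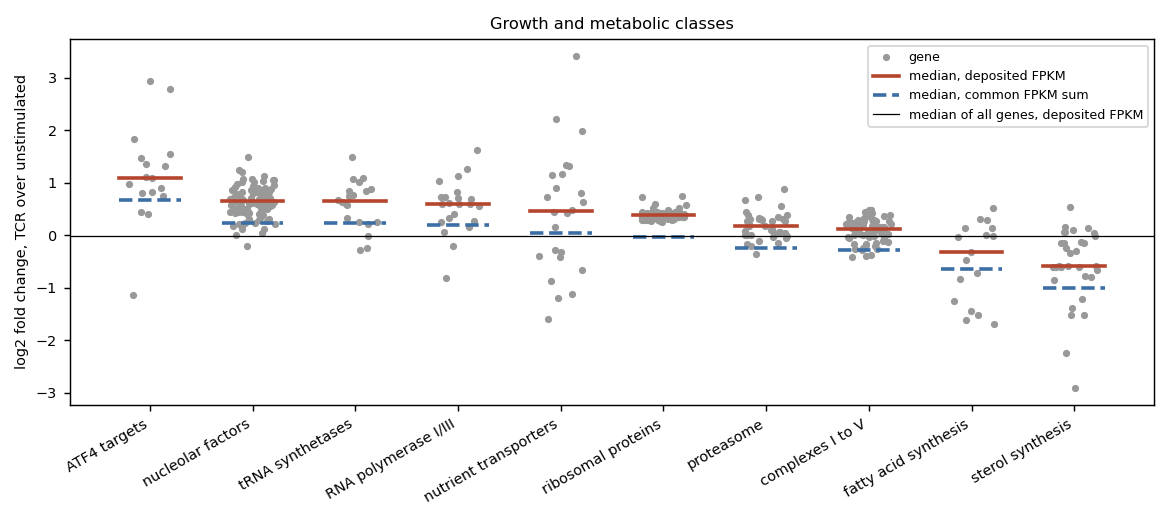
Grey points give the log2 fold change of each gene in 10 groups, red bars the median on the deposited FPKM scale and dashed blue bars the median after scaling to a common FPKM sum, with the median of all genes on the deposited scale (-0.01) as a black line. Ribosomal protein genes lie in a narrow band around 0.39 whose median moves to -0.03 with a common FPKM sum, where the median of all genes is -0.41. The sterol synthesis median is below 0 on both scales (-0.58 and -0.99).

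Cytoskeleton and GTPase regulator, PI3K pathway and DNA repair genes had shares called lower of 20.2%, 18.9% and 31.9%, beside 11.1% of all genes. Of 39 actin, myosin and tubulin genes 10 were lower and 4 higher. Actb, the cytoplasmic actin gene often taken as a reference, had 4524, 4567 and 4486 FPKM in the unstimulated libraries and 1535, 1455 and 1638 FPKM after peptide. The groups were far apart (log2 fold change -1.55 ± 0.07 SE, limma adjusted p = 2.9e-11). Plek, the gene of pleckstrin, rose from 12.4, 12.2 and 13.6 to 201, 226 and 200.1 FPKM (log2 fold change 4.03 ± 0.07 SE, limma adjusted p = 5.7e-16), and Arhgap19 fell by 3.25. Of 37 PI3K, AKT and mTOR genes 7 were lower and 3 higher. Pik3ip1, an inhibitor of PI3K, fell from 3.93, 3.93 and 3.53 to 0.5, 0.45 and 0.45 FPKM (log2 fold change -2.78 ± 0.15 SE, limma adjusted p = 4.5e-10) and Sgk3 by 2.06, while Pik3cd, the gene of p110δ, was at 221 ± 10.8 FPKM before and 119 ± 4.52 FPKM after peptide (mean ± SD, n = 3) and passed the limit only with a common FPKM sum or quantile normalisation. Mtor had a log2 fold change of 0.26 that changed sign with a common FPKM sum (-0.14). Of 47 DNA repair and p53 genes 15 were lower, among them Fanci (-1.87), of the Fanconi anaemia pathway, and Lig1 (-1.83), the replication ligase, and 4 were higher. Plk2 rose from 1.14, 1.13 and 0.94 to 45.2, 42.4 and 44.2 FPKM (log2 fold change 5.24 ± 0.09 SE, limma adjusted p = 5.7e-16), and Gadd45b and Plk3 by 4.79 and 3.27.

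Of 89 chromatin modifiers 5 were higher and 9 lower (5.62% and 10.1%, beside 8.87% and 11.1% of all genes). Dot1l, a histone H3 lysine methyltransferase, rose from 15.2, 16.3 and 14.8 to 90.4, 93.2 and 97.1 FPKM (log2 fold change 2.59 ± 0.07 SE, limma adjusted p = 2.8e-13), and Kdm6b, a histone demethylase, by 2.52. Dnmt3a, a de novo DNA methyltransferase, rose from 8.1, 8.68 and 8.31 to 59, 65.2 and 65 FPKM (log2 fold change 2.90 ± 0.09 SE, limma adjusted p = 7.8e-13), while Uhrf1, a partner of the maintenance enzyme, fell from 60, 67.6 and 63.7 to 16.1, 15.7 and 18.9 FPKM (log2 fold change -1.91 ± 0.07 SE, limma adjusted p = 7.2e-12). The ER chaperone gene Hspa5 rose from 437, 430.0 and 479 to 1063, 1072 and 991 FPKM (log2 fold change 1.22 ± 0.06 SE, limma adjusted p = 3.1e-10), a call lost with a common FPKM sum or quantile normalisation. Of 60 lysosome and autophagy genes 7 were higher (11.7%) and 5 lower (8.33%), beside 8.87% and 11.1% of all genes. With a common FPKM sum 2 were higher and 10 lower, beside 647 and 2276 of all 11022 genes, and after quantile normalisation 5 and 4. Psap, the precursor of lysosomal saposins, fell from 99.2, 93.5 and 93.3 to 32.6, 30.6 and 33.8 FPKM (log2 fold change -1.56 ± 0.05 SE, limma adjusted p = 2.8e-12). Gimap7, one of 3 of 8 GIMAP GTPase genes called lower, fell by 1.91. Klrc1, an NKG2-type receptor gene, rose by 1.93 and Klrb1f fell by 2.80, both with low FPKM and with close copies. Hist1h2bc rose by 1.96 among 25 histone genes, of which 4 were higher and 1 lower, and 7 were higher without Unstimulated replicate 3; with a common FPKM sum 2 were higher and 3 lower.

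Of the 9402 genes in none of the class or excluded lists 721 were higher and 929 lower. Pdzk1ip1, a membrane protein gene at chr4:115088708-115093894 (GRCm38.p6), was listed at 0 in every unstimulated library and at 104, 80.2 and 71 FPKM after peptide. Crabp2, a carrier of retinoic acid, at chr3:87948693-87953372, had 0.1, 0.32 and 0 FPKM in the unstimulated libraries and 193, 127 and 160.2 FPKM after peptide. Tagap, a GTPase activating protein gene of activated T cells, rose from 0.96, 0.47 and 0.83 to 142, 149 and 149 FPKM (log2 fold change 7.47 ± 0.17 SE, limma adjusted p = 1.8e-14) and Mpzl2, an adhesion molecule gene, from 0.06, 0.06 and 0.07 to 22.1, 26.1 and 23.1 FPKM (log2 fold change 7.19 ± 0.12 SE, limma adjusted p = 5.7e-16). Sphk1, which makes sphingosine 1-phosphate, Sp7, a transcription factor of bone cells, Slc18a2, a vesicular monoamine transporter, Idi2 and Wnt11 were each listed at 0 in all unstimulated libraries and reached 10.8 to 13.9, 9.38 to 12.5, 7.86 to 9.03, 5.41 to 7.91 and 5.2 to 6.32 FPKM. Timp1, an inhibitor of metalloproteinases, rose from 0.1, 0.22 and 0.17 to 22.8, 16.4 and 18.6 FPKM, and Sema4c, a semaphorin gene, from 0.12, 0.08 and 0.06 to 19.4, 16 and 14.8 FPKM. Apart from Tagap, these genes were at or near 0 in every unstimulated library, so their fold changes depend on the added 0.1.

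Among the 12 largest falls outside the lists, Fgl2, a secreted fibrinogen-like protein gene, had 249.6, 230.2 and 249 FPKM in the unstimulated libraries and 16, 19.6 and 23.8 FPKM after peptide (log2 fold change -3.63 ± 0.12 SE, limma adjusted p = 2.1e-12). Nod1, a sensor of bacterial peptidoglycan, fell from 5.28, 5.21 and 4.62 to 0.35, 0.34 and 0.44 FPKM (log2 fold change -3.43 ± 0.18 SE, limma adjusted p = 2.2e-10), Crtac1 by 3.42 and Gpr44, a prostaglandin D2 receptor gene, by 3.25 on the log2 scale. Arl4c, a small GTPase gene, fell from 90.5, 85.2 and 85.6 to 9.02, 9.73 and 11.3 FPKM (log2 fold change -3.11 ± 0.08 SE, limma adjusted p = 5.4e-14) and Hemgn from 23.9, 26.5 and 26.1 to 2.17, 3.88 and 3.49 FPKM. Igfbp4, a binding protein of insulin-like growth factors, fell from 95.3, 66.4 and 101 to 9.47, 8.58 and 18.4 FPKM (log2 fold change -2.90 ± 0.28 SE, limma adjusted p = 2.7e-07); its values were more spread than those of Fgl2 within each group.

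**Figure D5:**
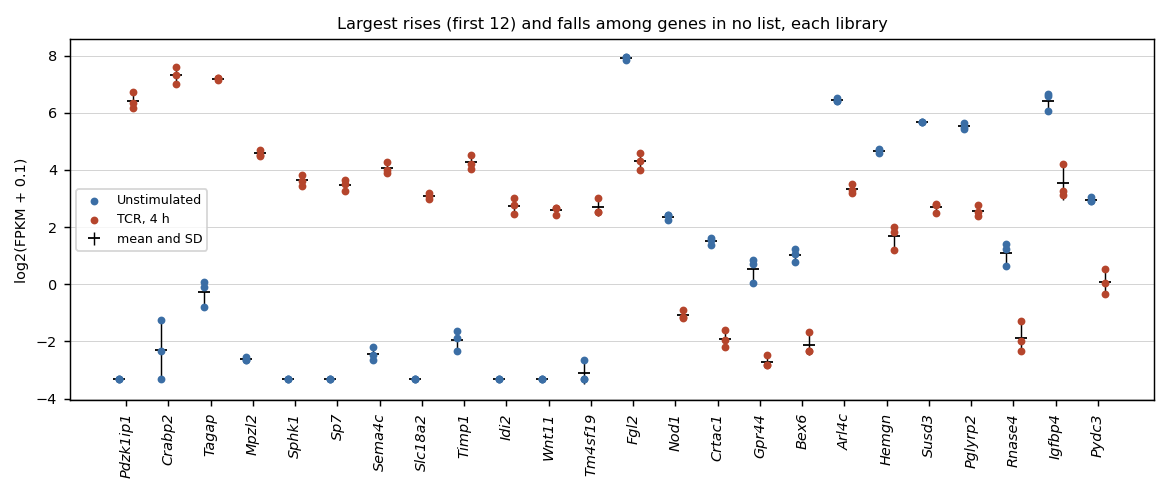
Points give log2(FPKM + 0.1) of each library for the 12 largest rises (left) and 12 largest falls (right) among genes in no list, blue for unstimulated and red for TCR CTL, with the mean and SD in black. Points at the bottom are values of 0 FPKM; the 2 groups do not overlap for any of these genes, which was part of the rule by which they were named.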

How the data were processed

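RNA was sequenced from 12 cultures, 3 in each of 4 groups. The authors aligned reads to mm10 with STAR 2.4.2a, counted RefSeq genes with Subread 1.5.0, removed low-count genes, scaled by TMM and deposited FPKM from edgeR for 11022 genes; whether counting used strand is not stated. Counts were not used here, and value columns not assigned to a sample numbered 0. FPKM values were analysed as log2(FPKM + 0.1), which understates the change of low genes. limma 3.58.1 (R 4.3.3, trend) estimated a mean for each group over the 12 samples, without a replicate term, and the procedure was tested on simulated data. P-values rest on the spread within all 4 groups, the inhibitor-treated samples included, with a trend over genes. Class lists and tests were chosen with earlier results of these data known. Named genes are, per role, up to 3 largest called rises and 3 falls (mean FPKM of at least 1, no overlap), 12 of each in no list, and 25 preset genes; others named (such as Irf4, Nfkb1, Rela, Egr1, Lag3, Prf1 and Gzmb) were chosen after their values were seen. Lists are described by counts, with no set test. An EGR motif and the 250-base promoter window were added after the first motif shares were seen. All motifs were searched on both strands. Promoters are from RefSeq. Some genes are not reported here.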

Additional observations from a re-analysis of the deposited data

How the results depend on the processing

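Results of the comparison were recomputed under 14 alternatives, of which 6 left out 1 library. The number of genes called higher (978) became 647 with a common FPKM sum and 635 with limma treat against a 2-fold change, and the number called lower (1224) became 2276 and 539 under these and 718 with a pseudocount of 1. Leaving out 1 library gave 971 to 997 genes higher and 1201 to 1271 lower. The sign of 3 named genes turned with a common FPKM sum, Foxo1 (-0.321), Mtor (-0.145) and Rplp0 (-0.048), and that of Rplp0 also after quantile normalisation (-0.117); none of them was called. Of 247 named genes, 27 lost their call with a common FPKM sum and 1 gained it. Fewer genes passed treat because it tests against the 2-fold limit itself; the other causes were not tested. As for pairing, the correlations of deviations between same-numbered libraries were 0.105, 0.153 and 0.0037, so replicate numbers were not taken to pair the samples. For replicates 1 and 2 the same-numbered library gave the highest value. TCR replicate 3 was also highest with its own number, but Unstimulated replicate 3 was highest with TCR replicate 1 (0.028). Whether the samples are paired is thus not settled. With a replicate block 980 genes were higher and 1226 lower. In the killer lectin receptor and histone groups the genes called higher went from 3 to 5 and from 4 to 7 without Unstimulated replicate 3. The table holds no read counts, so the precision of genes near 0 FPKM is limited by a depth known only from the estimate from low values.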
